A study of Mus musculus with 20 samples.

Results

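The tectorial membrane and otic matrix genes described here are 9 genes of the 24411 in the expression tables of a *Bai1* mouse series: *Tecta*, *Tectb*, *Ceacam16*, *Otog*, *Otogl*, *Otoa*, *Strc*, *Coch* and *Otos*. They were taken from a list fixed by gene name, which was chosen with earlier results of these data known. RNA-seq was performed on the apical coil of the cochlea, with the sensory epithelium and the spiral ganglion neurons dissected together and, per the labels, 4 mice pooled for each library. Control mice were *Bai1*tm2b/+ (labelled Het), which carry 1 copy of the tm2b allele, and were compared with *Bai1*tm2b/tm2b mice (labelled Homo), which carry it on both chromosomes. The allele removes exons 3 and 4 of *Adgrb1*, the gene for BAI1, and leaves a lacZ cassette, so the homozygotes lack the long isoform of the receptor and keep a short one. Mice of both sexes were on a C57BL/6N background. There were 3 libraries of each genotype at postnatal day 22 (P22) and 7 at P7. The values for P22 and for P7 replicates 5 to 7 are estimated counts per gene, and those for P7 replicates 1 to 4 behave as TPM (reads scaled to transcript length and library size) rounded to whole numbers.

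The tectorial membrane is an extracellular gel that lies over the hair cells and touches the tallest stereocilia of the outer hair cells. It holds collagen fibrils within a matrix of glycoproteins called the striated sheet, of which alpha-tectorin (*Tecta*) and beta-tectorin (*Tectb*) are the main parts, and it is laid down largely before hearing begins by cells of the greater epithelial ridge and by supporting cells. CEACAM16 (*Ceacam16*) is a later part of the striated sheet, otogelin (*Otog*) and otogelin-like (*Otogl*) are mucin-like glycoproteins of the acellular membranes of the inner ear, otoancorin (*Otoa*) anchors the membrane to the spiral limbus, and stereocilin (*Strc*) links it to the outer hair cell stereocilia. Cochlin (*Coch*) and otospiralin (*Otos*) are secreted by fibrocytes of the limbus and the lateral wall, and are matrix proteins of the cochlea outside the tectorial membrane.

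The genes lie at separate places in the genome (GRCm38, GENCODE), apart from *Otog*, *Otoa* and *Ceacam16*, which share chromosome 7 at 46240987 to 46311434, 121081650 to 121163097 and 19852097 to 19861299. *Tecta* spans 70.3 kb on the minus strand of chromosome 9 (42329619 to 42399929) and *Tectb* 15.6 kb on the plus strand of chromosome 19 (55180733 to 55196313). *Otogl* spans 151.6 kb on chromosome 10 (107760531 to 107912134), *Strc* lies on chromosome 2 (121363728 to 121387168), *Coch* on chromosome 12 (51593341 to 51605771) and *Otos* on chromosome 1 (92644218 to 92648841). The transcript lengths used below run from 704 nt for *Otos* to 10043 nt for *Otog*. Of the exon bases of *Ceacam16*, 23.2% overlap *Gm19345* on the opposite strand, and whether the counting used strand is not given in the sources used here, so reads of the pair cannot be told apart. The overlap was 4.1% for *Tecta* and at most 1.5% for the other genes.

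RefSeq (GRCm38.p6) gave a start site for 7 of the 9 genes, and *Otogl* and *Ceacam16* had no entry. *Tecta* had 2 start sites, and the one nearer to the GENCODE start of the gene is shown (the window of the other is chr9:42401691-42401790). The 100 bases before the start are shown, 5′ to 3′ on the strand of the gene, for the pair of tectorins, whose levels differed most between ages among the genes that were lower at P22, and for *Coch* and *Otos*, which were higher at P22 in the libraries in counts. Capitals mark TATAA, the core of a TATA box. The windows are chr9:42399948-42400047 (minus strand) for *Tecta*, chr19:55180626-55180725 (plus strand) for *Tectb*, chr12:51593241-51593340 (plus strand) for *Coch* and chr1:92648842-92648941 (minus strand) for *Otos*.
Tecta: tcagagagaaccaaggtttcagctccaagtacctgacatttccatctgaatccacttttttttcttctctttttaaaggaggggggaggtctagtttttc
Tectb: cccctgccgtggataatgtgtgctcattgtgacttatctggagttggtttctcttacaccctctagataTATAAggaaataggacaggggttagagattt
Coch: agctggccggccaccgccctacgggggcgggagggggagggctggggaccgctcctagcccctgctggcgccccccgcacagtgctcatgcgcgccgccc
Otos: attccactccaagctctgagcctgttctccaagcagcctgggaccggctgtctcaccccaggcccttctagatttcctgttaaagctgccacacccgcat

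TATAA was found in the *Tectb* window at 31 to 27 bases before the start, on the strand of the gene. Of 32841 mouse promoters, 3.32% held TATAA on that strand between 40 and 20 bases before the start. On both strands of the 250 bases before the start, TATAA was found in 22.8% of all promoters, AGGTCA (the core bound by many nuclear hormone receptors) in 14.0% and ACAAT (the core bound by SOX factors) in 27.7%, and no letters of these motifs overlap each other in the hits given here. Among the 7 genes, TATAA was found for *Tectb* and, on the opposite strand at 238 to 234 bases, for *Strc*, ACAAT for *Tectb* on the opposite strand (75 to 71 bases) and for *Strc* (5 to 1 bases), and AGGTCA for no gene. These matches describe letters and are not binding sites.

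Estimated counts summed to between 35725985 and 40350413 per library at P22 and to between 31108551 and 58807173 at P7, and the depth of the libraries in rounded TPM is unknown. The targeted gene *Adgrb1* was lower in *Bai1*tm2b/tm2b at P22 (log2 fold change −0.61 ± 0.0585 (SE), adjusted p = 0.000602, edgeR), with 137 to 151 CPM (counts scaled to library size) in control libraries and 90.8 to 95.8 in homozygous ones. At P7 it differed by −0.64 ± 0.227 in the libraries in counts (adjusted p = 0.894, edgeR) and by 0.013 ± 0.130 in those in rounded TPM (adjusted p = 0.958, limma), and the values sum all isoforms. Markers of the dissected tissue were present: 10 hair cell genes summed to 708 to 1025 CPM over the 12 libraries in counts and 10 supporting cell genes to 1908 to 2529.9 CPM, scaled within each age. A pair of control libraries stood apart in markers of the stria vascularis, the epithelium of the lateral wall: P22 replicate 2 (8 genes summed to 624 CPM, against 192 to 253 in the other P22 libraries) and P7 replicate 3 (399 TPM, against 114 to 174). Results that rest on them are given with and without them. In bulk tissue, fewer cells of a type and less RNA per cell cannot be told apart, and the p values measure only the spread between pools.

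Levels at P7 and P22 were compared within each genotype to ask how the matrix genes change as the cochlea matures, in 1 fit over the 12 libraries in counts (edgeR, 16314 genes). All 9 genes were called in both genotypes. A call required an adjusted p below 0.05, a log2 fold change beyond 0.5 and a standard error below 0.5. In controls, 3 genes were higher and 6 lower at P22, and the counts were the same in *Bai1*tm2b/tm2b. A call was common in this comparison: among all genes it was made for 24.8% as higher and for 27% as lower in controls, and for 24.2% and 25.1% in *Bai1*tm2b/tm2b. Age coincides with the separate preparation of the P7 and P22 libraries, and these cannot be told apart.

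Both tectorins were abundant at P7 and low at P22. Scaled over the 12 libraries, control libraries held 1024, 718 and 1044 CPM of *Tecta* at P7 and 5.49, 2.36 and 2.88 CPM at P22. Libraries of *Bai1*tm2b/tm2b held 565, 1369 and 951 CPM at P7 and 3.36, 2.65 and 3.80 CPM at P22. The ages did not overlap, and *Tecta* was 259.6-fold lower at P22 in controls (log2 fold change −8.02 ± 0.419, adjusted p = 7.07e-09) and 294-fold lower in *Bai1*tm2b/tm2b (−8.20 ± 0.421, adjusted p = 8.74e-09; edgeR). The P22 values rest on 75 to 179 counts of *Tecta* per library.

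*Tectb*, the partner of *Tecta* in the striated sheet, was at 5646, 4583 and 5954 CPM in control libraries at P7 and at 21.2, 21.4 and 21.1 CPM at P22. In *Bai1*tm2b/tm2b it was at 3633, 7278 and 5966 CPM at P7 and at 38.8, 46.5 and 42.9 CPM at P22. The ages lay far apart in both genotypes. *Tectb* was 254-fold lower at P22 in controls (−7.99 ± 0.274, adjusted p = 6.51e-10) and 132-fold lower in *Bai1*tm2b/tm2b (−7.04 ± 0.262, adjusted p = 1.22e-09; edgeR).

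*Ceacam16*, the late component of the same matrix, showed the opposite order. Control libraries held 0.566, 0.383 and 0.849 CPM at P7 and 1369, 1601 and 1463 CPM at P22. Libraries of *Bai1*tm2b/tm2b held 0.875, 0.670 and 0.650 CPM at P7 and 1735, 1764 and 2076 CPM at P22. *Ceacam16* was 2518-fold higher at P22 in controls (11.30 ± 0.237, adjusted p = 4.47e-11) and 2529.9-fold higher in *Bai1*tm2b/tm2b (11.30 ± 0.237, adjusted p = 4.28e-11; edgeR). Its P7 level rests on 23.3 to 39.0 estimated counts per library, where a gene on the opposite strand also overlaps.

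**Figure D1:**
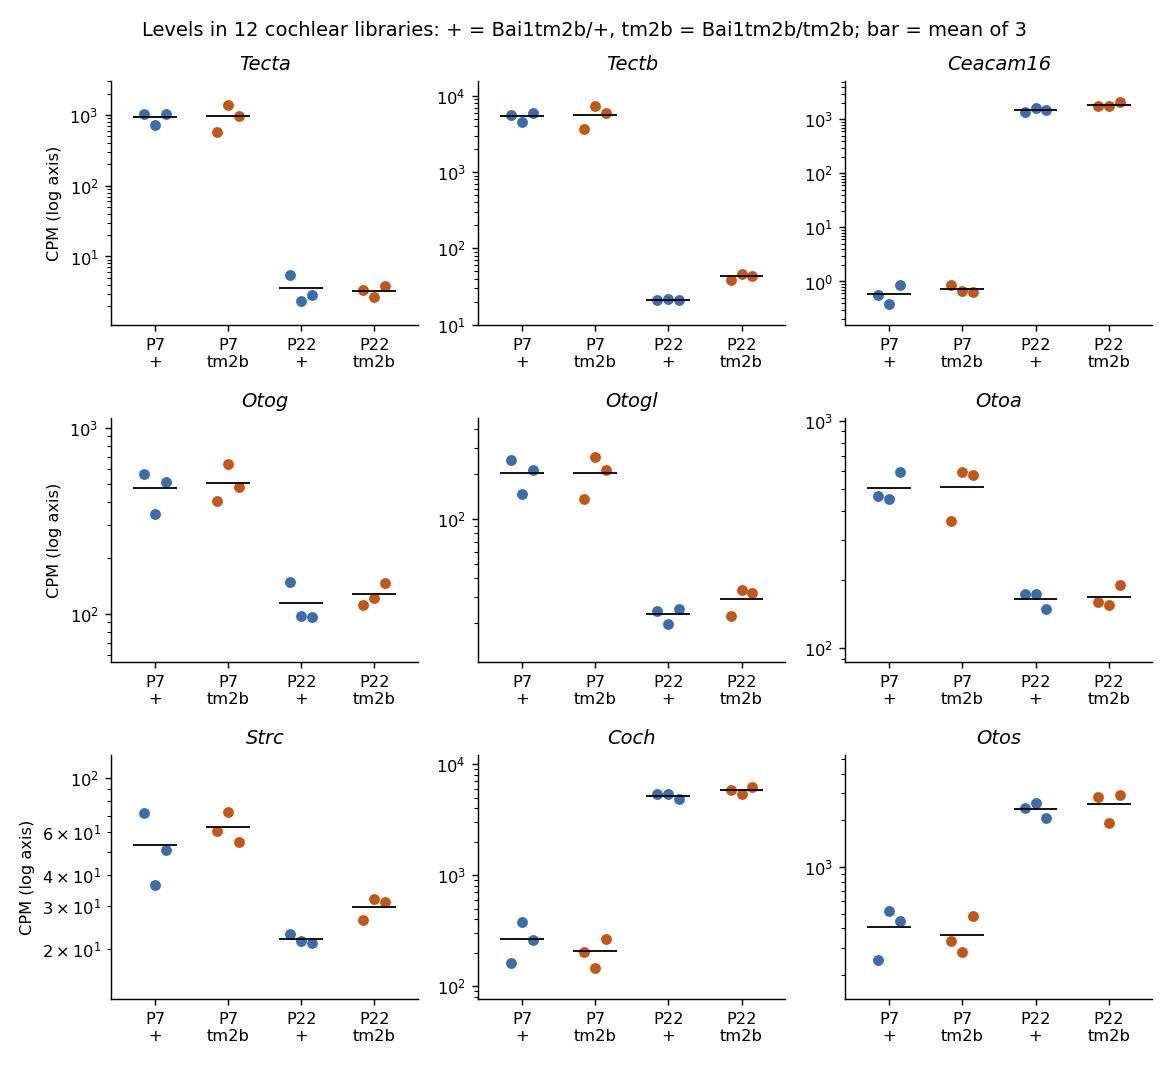
Level of each gene in the 12 libraries in counts, as CPM scaled over all 12 libraries, on log axes that differ between panels. Points are libraries (blue, Bai1tm2b/+; orange, Bai1tm2b/tm2b) and bars are means of 3 libraries. Tecta, Tectb, Otog, Otogl, Otoa and Strc are lower at P22, and Ceacam16, Coch and Otos are higher.

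The other genes of the tectorial membrane were lower at P22 by smaller factors. *Otogl* fell from 148 to 247 CPM at P7 to 19.8 to 24.6 CPM at P22 in controls, 8.82-fold (−3.14 ± 0.256, adjusted p = 2.47e-07), and was 6.99-fold lower in *Bai1*tm2b/tm2b (−2.81 ± 0.252). Its relative *Otog* was 4.14-fold lower in controls (343 to 563 CPM at P7 and 96.6 to 148 CPM at P22, −2.05 ± 0.231) and 3.99-fold lower in *Bai1*tm2b/tm2b. Of the genes for attachment, *Otoa* was 3.05-fold lower in controls (451 to 592 CPM and 149 to 174 CPM, −1.61 ± 0.176) and 3.04-fold lower in *Bai1*tm2b/tm2b, and *Strc* was 2.41-fold lower in controls (36.7 to 71.9 CPM and 21.3 to 23.0 CPM, −1.27 ± 0.195) and 2.10-fold lower in *Bai1*tm2b/tm2b. None of these ranges overlapped between ages.

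Both fibrocyte genes were higher at P22 in the libraries in counts. *Coch* was at 161, 383 and 262 CPM in control libraries at P7 and at 5382, 5361 and 4884 CPM at P22. It was 19.4-fold higher at P22 in controls (4.28 ± 0.303, adjusted p = 7.51e-08) and 28.0-fold higher in *Bai1*tm2b/tm2b (4.81 ± 0.311, adjusted p = 4.59e-08; edgeR). *Otos* was at 251, 522 and 447 CPM in control libraries at P7 and at 2404, 2589 and 2087 CPM at P22, 5.80-fold higher in controls (2.54 ± 0.277) and 7.02-fold higher in *Bai1*tm2b/tm2b (2.81 ± 0.280). The P7 control libraries in rounded TPM, which no test set against P22, had means of 434 TPM for *Coch* and 3821.5 TPM for *Otos*. Per kb of transcript, control means in counts were 109.6 (P7) and 1753 CPM (P22) for *Coch*, and 632 and 3025 CPM for *Otos*. Both calls rest on the P7 libraries in counts, and TPM and CPM per kb are different scales. Of 8 other fibrocyte and mesenchyme genes, 8 were called lower at P22 in controls (median log2 fold change −2.28) and 6 in *Bai1*tm2b/tm2b (median −2.16), with none higher.

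Levels can be ranked between genes only per length, here as mean CPM per kb of transcript within each age and genotype. The length was that of a single transcript per gene, the longest with a CCDS tag (a curated coding sequence) where annotated. The exon bases of a gene can be more: 3082 for *Otos* (704 nt used) and 8439 for *Otoa* (3773 nt used). The order can depend on this choice, and other lengths were not tried. In the P7 control libraries in counts the order was *Tectb* (2171), *Otos* (632), *Otoa* (146), *Tecta* (139), *Coch* (109.6), *Otog* (51.7), *Otogl* (25.3), *Strc* (10.1) and *Ceacam16* (0.402). The ranges of neighbours in this order overlapped between *Otoa* and *Tecta* and between *Tecta* and *Coch*. The P7 control libraries in rounded TPM, a unit already scaled to length, gave another order by mean TPM. The order there was *Otos* (3821.5), *Tectb* (1889.5), *Coch* (434), *Otoa* (131.5), *Tecta* (75), *Otog* (30.5), *Otogl* (21), *Strc* (6.25) and *Ceacam16* (0.25). In controls at P22 the order per kb was *Otos* (3025), *Coch* (1753), *Ceacam16* (816), *Otoa* (39.5), *Otog* (10.3), *Tectb* (7.03), *Strc* (3.44), *Otogl* (2.36) and *Tecta* (0.440), with no overlap between neighbours. In *Bai1*tm2b/tm2b at P22 *Tectb* (14.2) and *Otog* (11.5) changed places and their ranges overlapped.

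The collagens of the tectorial membrane were lower at P22, as the tectorins were. All 6 collagen genes on the list were called lower at P22 in controls (median log2 fold change −3.23) and in *Bai1*tm2b/tm2b (−2.99), against a median of −0.058 and −0.042 over all genes tested. *Col9a1*, a chain of the fibril-associated collagen IX, differed most (−5.07 in controls, adjusted p = 5.19e-10, edgeR), followed by *Col2a1* (−3.94), *Col9a2* (−3.37) and *Col11a1* (−3.09). Of 7 genes of the greater epithelial ridge, the transient epithelium beneath the membrane, 5 were called lower and 2 higher in controls (median −2.07). Those lower included *Itga8* (−3.78), *Fst* (−2.91) and *Jag1* (−2.37), and *Crabp1* (2.89) and *Fgf10* (1.38) were higher.

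**Figure D2:**
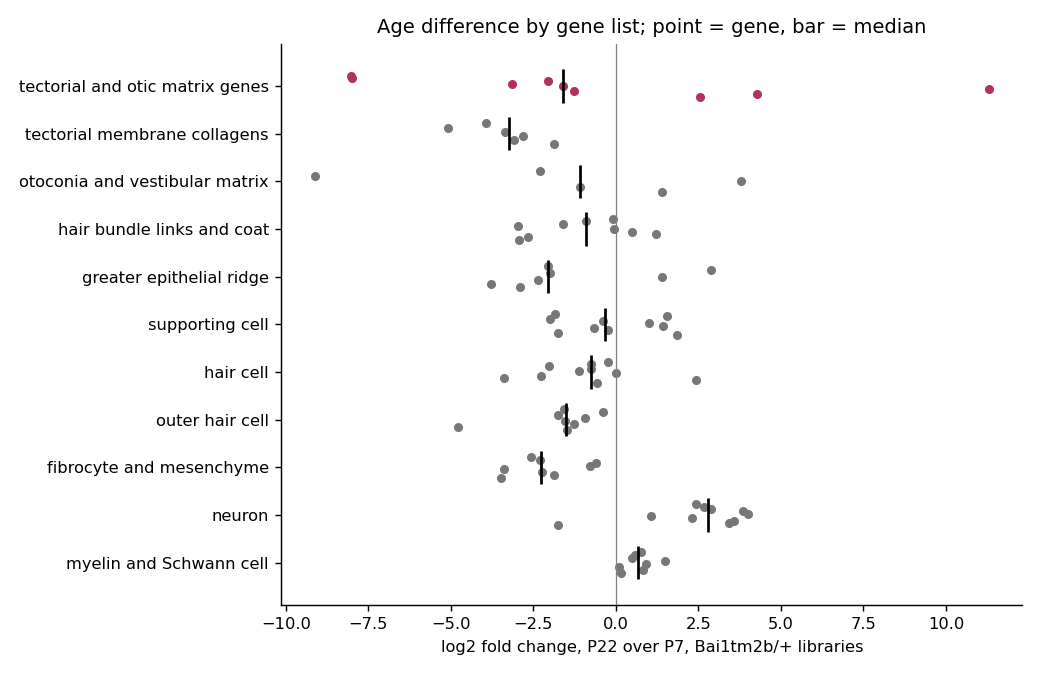
Log2 fold change from P7 to P22 in Bai1tm2b/+ libraries (horizontal axis) for the genes of each list (rows). Points are genes and vertical bars are list medians. The 9 tectorial and otic matrix genes (red) range from −8.02 for Tecta to 11.30 for Ceacam16, and the 6 collagens all lie below 0.

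Genes of other inner ear structures gave mixed counts. Of 5 otoconia and vestibular matrix genes tested, 2 were called higher at P22 (*Otop1*, 3.80, and *Sparcl1*, 1.38) and 3 lower, with *Oc90*, a main otoconial protein, at −9.12 in controls. Of 9 genes for hair bundle links and coat, 4 were called lower in controls, among them *Pkhd1l1* (−2.95), *Ptprq* (−2.67) and *Adgrv1* (−1.61), and *Clrn1* (1.21) was higher. Of 8 outer hair cell genes, the cells that carry stereocilin, 7 were called lower in controls (median −1.51), and 9 of 10 neuron genes were called higher (median 2.78). The summed neuron markers, scaled within each age, were at 1615 to 3044 CPM in control libraries at P7 and at 13401 to 15369 CPM at P22, so these markers differed between ages along with the genes above, and their part in those differences was not tested. Scaling to supporting cell markers in place of all genes left the log2 fold changes in controls at −8.17 for *Tecta*, −8.16 for *Tectb* and 11.11 for *Ceacam16*.

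At P22 the genotypes were compared to ask which transcripts differ when the long isoform of BAI1 is absent. *Tectb* was the 1 gene of the 9 that was called, at 2.02-fold its control level in *Bai1*tm2b/tm2b, and none was called lower. Over 15443 genes the share called was 1.74% for higher and 1.41% for lower. The authors had already listed *Tectb* among the genes higher at P22 in these same libraries, so its call was known beforehand. By its p value *Tectb* ranked 4 of all genes tested, and by its fold it ranked 35 of the 269 genes called higher.

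Control libraries held 19.2, 19.3 and 19.0 CPM of *Tectb*, and *Bai1*tm2b/tm2b libraries held 35.1, 42.1 and 39.1 CPM. The control libraries lay close together and the lowest homozygous library lay above all of them. The log2 fold change was 1.02 ± 0.0808 (adjusted p = 0.000303, edgeR), and the exact 2-sided permutation test gave p = 0.1, the smallest that 3 against 3 libraries allow. The value was 1.02 (adjusted p = 0.000576) without control replicate 2, the library with most stria vascularis RNA. These levels, scaled within P22, are small beside those of P7. There the same gene was at 3633 to 7278 CPM in *Bai1*tm2b/tm2b, scaled over the libraries in counts of both ages.

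*Ceacam16* and *Strc* also had groups that did not overlap, with adjusted p values below 0.05 but log2 fold changes short of 0.5. The share of all genes whose groups did not overlap was not counted, here or at P7, so the lack of overlap only describes these libraries. Of all genes tested, 12.3% had an adjusted p below 0.05. *Ceacam16* was at 1238, 1441 and 1322 CPM in control libraries and at 1570.4, 1598 and 1889 CPM in *Bai1*tm2b/tm2b (0.34 ± 0.0857, adjusted p = 0.0299, edgeR). *Strc*, which is made by outer hair cells, was at 20.8, 19.4 and 19.2 CPM in controls and at 23.7, 29.1 and 28.3 CPM in *Bai1*tm2b/tm2b (0.45 ± 0.0907, adjusted p = 0.0122, edgeR). The permutation test gave p = 0.1 for each. Without single libraries the adjusted p of *Ceacam16* was between 0.0141 and 0.124 and passed in 2 of 6 fits, while that of *Strc* stayed between 0.00814 and 0.0484 in all 6.

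The other 6 genes had overlapping groups at P22. *Tecta* was at 4.97, 2.12 and 2.60 CPM in controls and at 3.04, 2.40 and 3.46 CPM in *Bai1*tm2b/tm2b (−0.12 ± 0.297, adjusted p = 0.824), so no difference was detectable in the partner of *Tectb* at this depth. *Otogl* was at 21.9, 17.9 and 22.3 CPM and at 20.1, 30.0 and 28.9 CPM (0.35 ± 0.144, adjusted p = 0.140). Without homozygous replicate 1, whose value lay within the control range, the log2 fold change of *Otogl* was 0.51 (adjusted p = 0.0183, edgeR). In the 5 other fits with a single library left out it was 0.25 to 0.40, with adjusted p values of 0.188 to 0.368 (edgeR).

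*Otog*, at 134, 87.8 and 87.3 CPM in controls and 101, 111 and 134 CPM in *Bai1*tm2b/tm2b, had its highest control library level with its highest homozygous one (0.16 ± 0.156, adjusted p = 0.528). *Otoa*, the limbal anchor, was at 157, 156 and 134 CPM and at 145, 141 and 172 CPM (0.032 ± 0.0862, adjusted p = 0.838). *Coch* was at 4865, 4825 and 4412 CPM and at 5270.0, 4838 and 5659 CPM, with the lowest homozygous library below the highest control (0.16 ± 0.0792, adjusted p = 0.210). *Otos* was at 2174, 2330.1 and 1885 CPM and at 2562, 1738 and 2658 CPM, with the widest spread in *Bai1*tm2b/tm2b (0.12 ± 0.141, adjusted p = 0.608; edgeR for all).

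**Figure D3:**
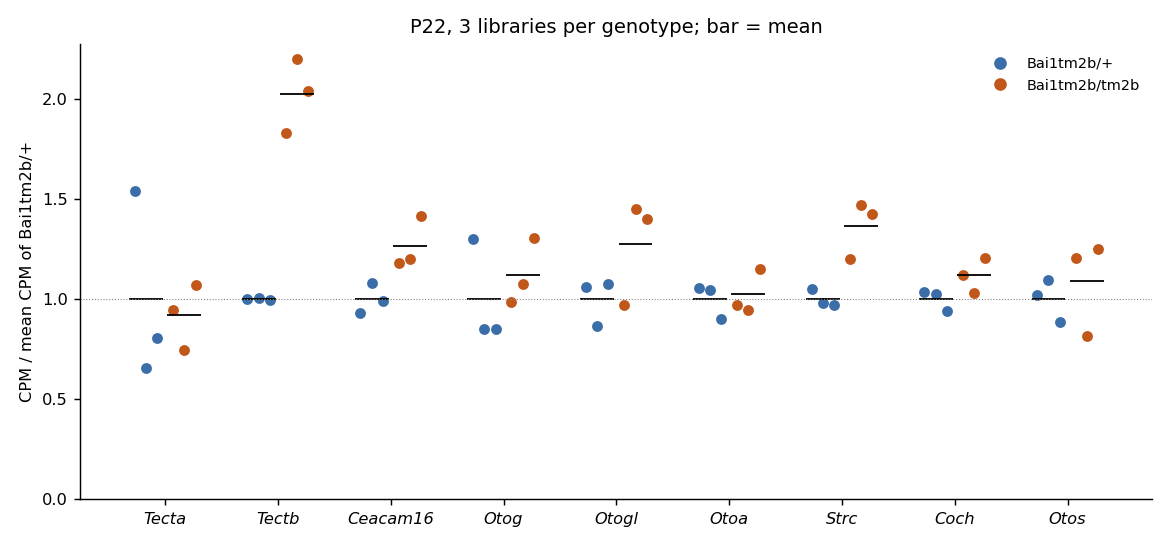
Level of each gene in the 6 libraries of P22, as CPM divided by the mean CPM of the 3 Bai1tm2b/+ libraries (vertical axis from 0). Points are libraries (blue, Bai1tm2b/+; orange, Bai1tm2b/tm2b) and bars are means. Tectb stands at 2.02 times the control mean, and the groups are apart for Tectb, Ceacam16 and Strc.

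Genes of the same structures and cells at P22 are described by counts beside a median log2 fold change of 0.013 over all genes tested. None of the 6 tectorial membrane collagens was called, and all 6 values were positive (0.025 to 0.31, median 0.25). None of 8 hair bundle genes was called (median 0.0060), and none of 5 otoconia and vestibular matrix genes (median −0.23) or of the relatives of otoancorin and stereocilin, *Msln* (−0.084) and *Mslnl* (0.20). Among 7 greater epithelial ridge genes, *Epyc*, a small proteoglycan, was called higher (0.50, adjusted p = 0.0158, edgeR), with a median of 0.0099 for the list. Its value lies at the threshold, and no gene of the list was called by DESeq2, with no filter, with length and GC trends removed, or without control replicate 1 or homozygous replicate 3. Collagen sums did not overlap between genotypes (1409 to 1789 CPM in controls, 1822 to 1979 in *Bai1*tm2b/tm2b). Nor did those of the ridge (603 to 701, 704 to 836) and otoconia lists (4055 to 4325, 3424 to 3685). Sums of the hair bundle list did overlap (96.1 to 106, 104 to 113). A sum follows its most abundant genes.

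Markers of cell types moved with genotype as well. Of 10 supporting cell genes, *Fgfr3*, a receptor of pillar cells, was called higher (0.69) and *Prox1* lower (−0.59), with a median of 0.25, and their sum was 1908 to 2198 CPM in controls and 2287 to 2529.9 CPM in *Bai1*tm2b/tm2b. Of 9 hair cell genes tested, *Espn* (0.99) and *Otof* (0.54) were called higher (median 0.49). Of 8 outer hair cell genes, *Ocm* (0.70) and *Chrna10* (0.58) were called higher (median 0.51), and the sum was 124 to 141 CPM in controls and 182 to 208 CPM in *Bai1*tm2b/tm2b. Of 10 neuron genes, *Syt2* (−0.53) and *Nefh* (−0.52) were called lower (median −0.42), with sums of 13401 to 15369 and 9915 to 11258 CPM, while *Mbp* (0.54) was called higher among 8 myelin genes (median −0.096). None of these sums overlapped between genotypes apart from those of the hair cell list (958 to 1025 and 962 to 1024 CPM) and the myelin list (18737 to 19821 and 19678 to 23052 CPM). Of 6 stria vascularis genes tested, *Esrrb* was called lower (−1.49) and 5 were negative (median −1.75, lowest −6.06), where control replicate 2 held the high values given above, and of 6 bone genes none was called (median −0.19). Without single libraries the number called was 0 to 3 for the neuron list (0 without control replicate 3), 1 to 3 for the hair cell list (1 without control replicate 3 or homozygous replicate 3), 2 to 4 for the outer hair cell list and 0 to 1 for the stria list. With scaling to supporting cell markers no outer hair cell or myelin gene was called. The authors had reported *Fgfr3*, *Espn*, *Otof* and *Chrna10* as higher and *Syt2* and *Nefh* as lower in the same libraries. The lists were chosen with earlier results of these data known, so these calls are not independent evidence. The part of these markers in the differences of the 9 genes was not tested. Scaling to the supporting cell markers changes the library factors and so shifts all genes together, here to a median of −0.24. It cannot tell a change in cell numbers from one in RNA per cell. Under it *Tectb* was higher (0.77, adjusted p = 3.57e-05, edgeR). The log2 fold change was 0.087 for *Ceacam16* (adjusted p = 0.583) and 0.19 for *Strc* (adjusted p = 0.229, edgeR).

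At P7 the same question was asked in the 3 and 3 libraries in counts. None of the 9 genes was called, and the groups overlapped for every one. edgeR called 0% of 16026 genes, 763 had an unadjusted p below 0.05 and DESeq2 called 48, none of them among the 9.

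Control libraries held 1132, 782 and 1142 CPM of *Tecta* and *Bai1*tm2b/tm2b libraries 647, 1508 and 1044 CPM, with the lowest and the highest value both homozygous (0.066 ± 0.299, adjusted p = 0.979). *Tectb* was at 6243, 4993 and 6511 CPM and at 4161, 8017 and 6551 CPM, again with the lowest and the highest value homozygous (0.078 ± 0.239, adjusted p = 0.967). *Otog* was at 622, 373 and 561 CPM and at 461, 707 and 526 CPM (0.12 ± 0.224), and *Otogl* was at 273, 161 and 231 CPM and at 155, 287 and 233 CPM (0.022 ± 0.258). In *Bai1*tm2b/tm2b, replicate 5 was lowest and replicate 6 highest for *Tecta*, *Tectb*, *Otog*, *Otogl* and *Otoa* alike, and in controls replicate 6 was lowest for these 5 genes. Marker sums differed between these libraries too. Greater epithelial ridge genes summed to 1789 and 2850 CPM in homozygous replicates 5 and 6, and to 2175 in control replicate 6. Myelin genes were highest in control replicate 6 (17287 CPM) and lowest in homozygous replicate 6 (5656 CPM). Other lists did not all follow this order, and the part of the markers was not tested.

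*Otoa* was at 517, 491 and 647 CPM in controls and at 414, 658 and 632 CPM in *Bai1*tm2b/tm2b (0.041 ± 0.192), and *Strc* was at 79.5, 39.9 and 55.3 CPM and at 69.5, 79.8 and 60.2 CPM (0.26 ± 0.237). *Coch* was at 178, 417 and 286 CPM and at 233, 162 and 296 CPM (−0.35 ± 0.326), and *Otos* at 278, 569 and 489 CPM and at 380.4, 309 and 527 CPM (−0.13 ± 0.289). The control library lowest for the tectorins, replicate 6, was highest for both fibrocyte genes. *Ceacam16* was at 0.626, 0.417 and 0.928 CPM and at 1.00, 0.738 and 0.713 CPM (0.33 ± 0.366). The adjusted p values of the 9 genes lay between 0.897 and 0.992 (edgeR).

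In the libraries in rounded TPM, 4 of each genotype, 2 of the 8 genes tested were called higher in *Bai1*tm2b/tm2b, *Tecta* and *Otog*, and none lower. Genes entered the test at a mean of 5 TPM or more, and of these 11740 genes 0.596% were called higher and 0.17% lower (limma on log2 of TPM plus 1). *Ceacam16* was listed at 0 TPM in 5 of the 8 libraries and at 1 TPM in the others and was not tested.

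Control libraries held 97, 88, 34 and 81 TPM of *Tecta* and *Bai1*tm2b/tm2b libraries 187, 178, 134 and 208 TPM. The groups did not overlap, and the log2 fold change was 1.19 ± 0.268 (adjusted p = 0.0454, limma; exact 2-sided permutation p = 0.0286, the smallest that 4 against 4 libraries allow). *Otog* was at 37, 32, 24 and 29 TPM in controls and at 42, 55, 54 and 44 TPM in *Bai1*tm2b/tm2b, again without overlap (0.55 ± 0.120, adjusted p = 0.0454, limma; exact permutation p = 0.0286). The smallest adjusted p of all genes in this set was also 0.0454, and 4029 genes had an unadjusted p below 0.05.

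Control replicate 3, which held most stria vascularis RNA, was the lowest library for *Tecta* and for *Otog*. Without it, the log2 fold change was 0.87 for *Tecta* (adjusted p = 0.117) and 0.46 for *Otog* (adjusted p = 0.122, limma), and no gene of the 9 was called. Calls for both were also lost without 5 of the other 7 libraries, with adjusted p values up to 0.125. In this set log2 fold changes were larger for longer transcripts (Spearman rho 0.600 over 11343 genes, a description across genes that are not independent), against 0.0580 at P7 in counts and −0.22 at P22. *Tecta* (7338 nt) and *Otog* (10043 nt) are longer than the median gene (3116 nt), and with the trend on length and GC content removed the log2 fold changes were 0.94 (adjusted p = 0.165) and 0.17 (adjusted p = 0.338, limma).

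Marker genes also differed in these libraries. The 8 fibrocyte and mesenchyme genes summed to 4006 to 4582 TPM in controls and to 4889 to 5492 TPM in *Bai1*tm2b/tm2b, without overlap, though none was called and their median log2 fold change was 0.0030. All 6 tectorial membrane collagens had positive values (median 0.28) and none was called, against a median of 0.0061 over all genes tested. *Otof*, which hair cells use in transmitter release, was called higher (0.53) among 8 hair cell genes, and *Syt2* (0.65) among 9 neuron genes. Of 8 myelin genes, 1 was called lower (median −0.15). Without single libraries the number called was 0 to 1 for the hair cell list, 0 to 4 for the neuron list and 0 for the myelin list. The sums of the hair cell and neuron lists overlapped between genotypes. The part of these markers in the values of *Tecta* and *Otog* was not tested.

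The other genes were not called in rounded TPM. *Otogl* was at 26, 22, 19 and 17 TPM in controls and at 27, 29, 30 and 28 TPM in *Bai1*tm2b/tm2b, without overlap (0.33 ± 0.0918, adjusted p = 0.0523, limma; exact permutation p = 0.0286). *Tectb* was at 2341, 2065, 1239 and 1913 TPM and at 2567, 2411, 2494 and 2260.0 TPM, with 1 control library above the lowest homozygous one (0.28 ± 0.158, adjusted p = 0.227). *Otoa* was at 161, 147, 100 and 118 TPM and at 153, 175, 214 and 161 TPM (0.31 ± 0.137, adjusted p = 0.140). For both, the lowest value was that of control replicate 3.

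*Strc* was at 7, 5, 6 and 7 TPM in controls and at 5, 9, 8 and 5 TPM in *Bai1*tm2b/tm2b, where rounding to whole numbers limits the resolution (−0.034 ± 0.189, adjusted p = 0.915). *Coch* was at 380.0, 381, 559 and 416 TPM and at 229, 538, 512 and 346 TPM (−0.27 ± 0.254, adjusted p = 0.467). *Otos* was at 2787, 2892, 5406 and 4201 TPM and at 1935, 3901, 4111 and 2377 TPM (−0.45 ± 0.297, adjusted p = 0.308; limma). For *Coch* and *Otos*, control replicate 3 was the highest library.

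**Figure D4:**
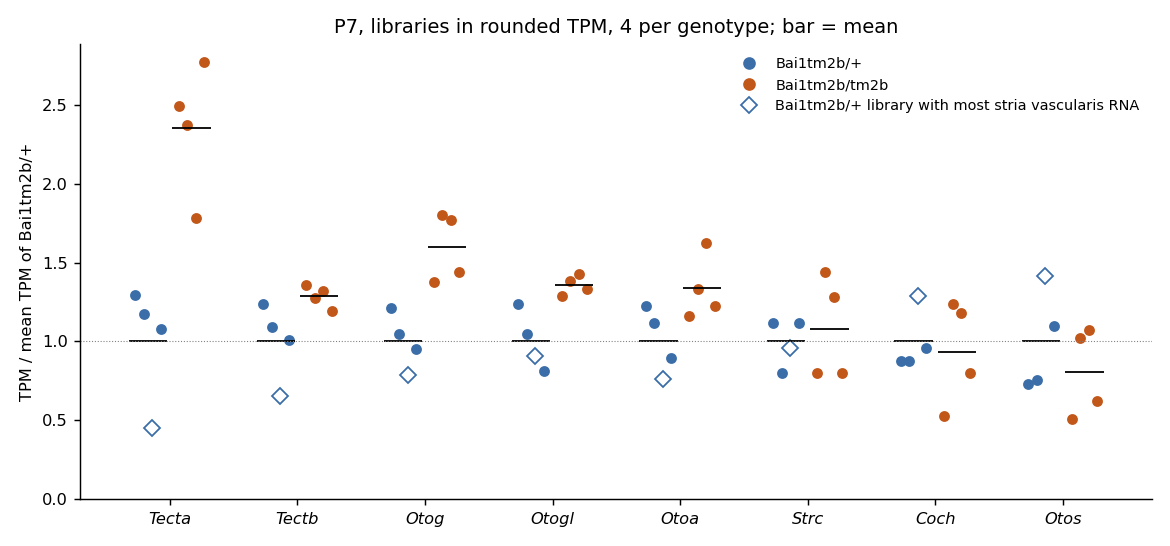
Level of 8 genes in the P7 libraries in rounded TPM, divided by the mean TPM of the 4 Bai1tm2b/+ libraries (vertical axis from 0). Points are libraries (blue, Bai1tm2b/+; orange, Bai1tm2b/tm2b), bars are means and the open diamond is Bai1tm2b/+ replicate 3. The diamond is lowest for Tecta, Tectb, Otog and Otoa and highest for Coch and Otos.

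Both P7 sets were joined on a log2 scale with the set as a term (limma, 11441 genes). No gene of the 9 was called and 0% of all genes were, with 2685 genes at an unadjusted p below 0.05. The log2 fold change was 0.68 ± 0.265 for *Tecta* (adjusted p = 0.158) and 0.37 ± 0.135 for *Otog* (adjusted p = 0.143), and between −0.30 and 0.19 for the other 6 genes tested. The difference between the sets in the effect of genotype was 1.20 ± 0.450 for *Tecta* (unadjusted p = 0.0189, adjusted p = 0.229, limma) and was not called for any gene (0%, with 2024 genes at an unadjusted p below 0.05). Other tools were not run on the joined values.

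**Figure D5:**
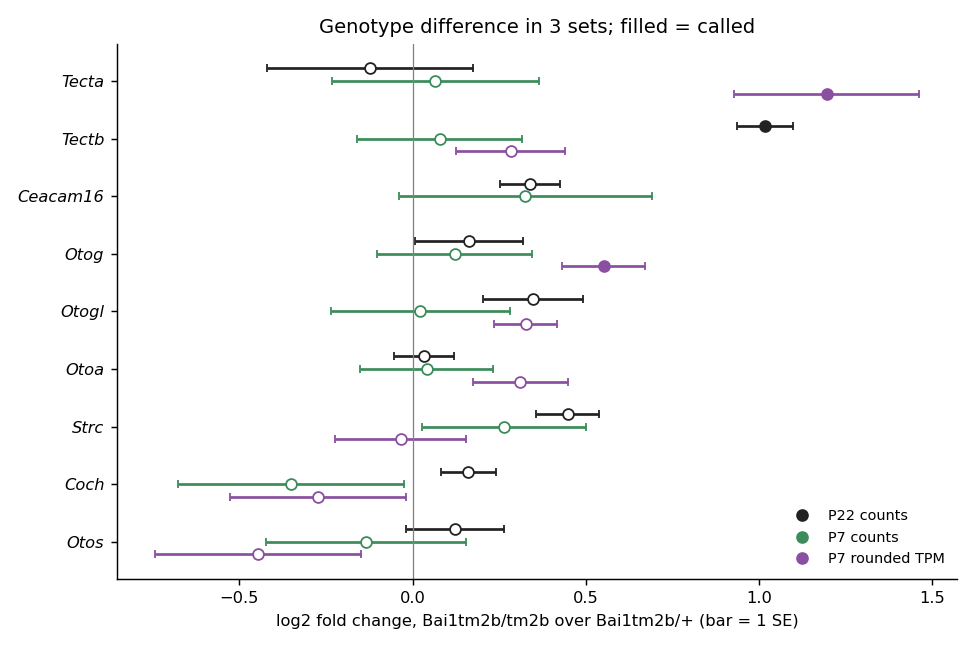
Log2 fold change of Bai1tm2b/tm2b over Bai1tm2b/+ (horizontal axis) for each gene in the P22 libraries (black), the P7 libraries in counts (green) and those in rounded TPM (purple), with bars of 1 SE. Filled points passed the call (Tectb at P22, Tecta and Otog in rounded TPM), and Ceacam16 was not tested in rounded TPM.

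Whether the effect of genotype differed between ages was tested in the fit over the 12 libraries in counts. None of the 9 genes was called, and 0.0306% of all genes were (5 genes, edgeR). The difference was 0.95 ± 0.289 for *Tectb* (unadjusted p = 0.00638, adjusted p = 0.305), 0.53 ± 0.376 for *Coch* (adjusted p = 0.655) and between −0.18 and 0.34 for the other 7. For *Tectb*, called at P22 and not at P7, the difference between ages thus missed the threshold after adjustment over all genes. At an unadjusted p below 0.05 there were 1666 genes, and DESeq2 called 119, none of them among the 9.

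The genes whose levels were most alike over the 12 libraries were named by Pearson r of log2 CPM. The libraries fall apart by age, so r mainly follows the difference between P7 and P22, and it is a description. For *Tectb* they were *Mia* (0.998), *Arf4* and *Fnbp1l*, for *Tecta* *Cep41* (0.998), *Chst1* and *Adamts17*, and for *Ceacam16* *Stk11* (0.997), *Grin2c* and *Ccdc28a*. *Otogl* and *Otog* shared *Jag1* among their nearest 3 genes (0.997 and 0.991). For *Otoa* they were *Plod3* (0.997), *Asnsd1* and *Ncstn*, for *Coch* *Cd59a* (0.998), *Trf* and *Asic3*, and for *Otos* *Mt3* (0.994), *Frs3* and *Daglb*. Genes alike *Strc* included *Tomt* (0.977) and *Chrna10* (0.977), which are expressed by hair cells.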

How the data were processed

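Apical coils were profiled by RNA-seq at P22 (3 libraries per genotype) and P7 (7 per genotype). The authors sequenced poly A libraries and processed them with an nf-core RNA workflow on mm10, using Salmon for quantification; the submitters' notes also name STAR and DESeq2. Versions, annotation release and strand setting are not given in the sources used here. The values the authors deposited for P22 and for P7 replicates 5 to 7 are estimated counts (expected counts), not normalized. Those deposited for P7 replicates 1 to 4 are treated as a score, whole numbers like TPM after rounding, and the count test planned for them was replaced by limma.

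Estimated counts were rounded, filtered with filterByExpr, scaled by TMM and tested by the quasi-likelihood test of edgeR 4.0.16 in R 4.3.3, with DESeq2 1.42.0 as an alternative. TPM were scaled by TMM and tested as log2(TPM + 1) by limma 3.58.1, a scale that understates fold changes of low genes, where the mean reached 5 TPM. P values were adjusted over all genes tested (Benjamini-Hochberg). A call needed an adjusted p below 0.05, a log2 fold change beyond 0.5 and a standard error below 0.5. Genes named are the 9 genes, *Adgrb1*, the called genes of each marker list (at most the 4 with the largest change) and the 3 genes most alike each of the 9 by Pearson r; *Msln* and *Mslnl*, which were not called, were named after their values were seen. Some genes this rule names are not reported here. The genes and lists were chosen with earlier results of these data known. Each fit was tested on simulated data. Alternatives covered filters, pseudocount, scaling, test, thresholds, a replicate block and each library left out; the removal of length and GC trends and the test between P7 sets were added after the values were seen. Same-numbered libraries did not deviate together (correlations from −0.23 to 0.069). Gene names were replaced by dates in 27 rows.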

Additional observations from a re-analysis of the deposited data

Results flagged for a closer look

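*Ceacam16* in P7 control replicate 2 was listed at 1 TPM and at 0 TPM in the other 3 control libraries in rounded TPM, so its gap to them was the whole range of the group. A group of 0 and 1 TPM with 1 library apart from the other 3 is always flagged by this rule. Rounding to whole TPM allows no smaller step, so the usual rate of about 1 group in 20 does not hold here.

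The effect of genotype on *Tectb* was larger at P22 than at P7 by 0.95 on the log2 scale (unadjusted p = 0.00638, adjusted p = 0.305, edgeR), with 3 of 3 homozygous libraries above all controls at P22.

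The effect of genotype on *Tecta* at P7 was larger in the libraries in rounded TPM than in those in counts by 1.20 on the log2 scale (unadjusted p = 0.0189, adjusted p = 0.229, limma), with 4 of 4 homozygous libraries above all controls in rounded TPM and overlapping groups in counts. The set coincides with the batch of the libraries and with the unit of the values, and these cannot be told apart.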

How the results depend on the processing

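Between P7 and P22 the 9 genes kept their direction and their side of the adjusted p in all 144 alternatives in each genotype, and 5 to 6 were called lower without single libraries, since the standard error of *Tecta* passed 0.5. None of these alternatives used the P7 libraries in rounded TPM. At P22, *Tectb* was called under every alternative run (0.77 to 1.46). The number of the 9 called higher was 1 to 3 without single libraries, 3 by adjusted p alone and 7 with scaling to neuron markers, which moved the median of all genes to 0.45. Scaling to supporting cell markers (median −0.24) turned *Otog* (−0.10), *Otoa* (−0.22), *Coch* (−0.092) and *Otos* (−0.13), scaling to neuron markers turned *Tecta* (0.31), and removal of length and GC trends turned *Tecta* (0.013) and *Otos* (−0.068). Without single libraries *Tecta* ranged from −0.35 to 0.33 and *Otoa* from −0.062 to 0.091. All genes called numbered 487, against 270.0 to 588 without single libraries, 1512 and 5376 under the supporting cell and neuron scalings and 1904 by adjusted p alone.

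At P7 in counts, 0 genes were called, 48 by DESeq2 and 32 with scaling to neuron markers (median 0.31), which turned *Coch* (0.061) and *Otos* (0.24). Without single libraries the ranges were −0.27 to 0.32 for *Tecta*, −0.14 to 0.30 for *Tectb*, −0.073 to 0.28 for *Otog*, −0.19 to 0.23 for *Otogl*, −0.079 to 0.22 for *Otoa* and −0.38 to 0.081 for *Otos*. In rounded TPM, 2 of the 9 were called, and 0 with a minimum mean of 1 TPM, with the replicate block or with length and GC trends removed, and 0 to 2 without single libraries. *Strc* turned without TMM scaling (0.067, median of all genes 0.12) and ranged from −0.16 to 0.089 without single libraries. All genes called there numbered 90 in the report, 292 without TMM scaling, 977 by adjusted p alone, 0 under the 3 settings that lost both calls and 0 to 335 without single libraries.

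For the difference in genotype effect between ages, DESeq2 size factors turned *Otoa* (−0.030) and *Ceacam16* (−0.027), the DESeq2 test turned *Otoa* (−0.029) and *Ceacam16* (−0.031), and scaling to supporting cell markers turned *Otog* (−0.22), *Otoa* (−0.24), *Ceacam16* (−0.26) and *Strc* (−0.085). Without single libraries the ranges were −0.45 to 0.27 for *Tecta*, −0.090 to 0.29 for *Otog*, −0.19 to 0.13 for *Otoa*, −0.33 to 0.30 for *Ceacam16* and −0.081 to 0.41 for *Strc*. Genes called numbered 5, against 8 with no filter, 16 with scaling to supporting cell markers, 119 by DESeq2 and 0 to 101 without single libraries. The causes of these shifts were not tested.

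The labels do not say whether the replicate numbers pair the libraries. Same-numbered libraries did not deviate together, but with so few libraries this is a weak check. With the replicate block, *Tectb* at P22 was 1.01 (adjusted p = 0.00164, edgeR) with 466 genes called, *Tecta* in rounded TPM was 1.19 (adjusted p = 0.105) and *Otog* 0.55 (adjusted p = 0.117, limma), and *Tecta* at P7 in counts turned to −0.00078. No paired analysis was possible between ages because the P7 and P22 libraries are pools of different mice. Depth limits *Ceacam16* at P7 and *Tecta* at P22, and rounding limits *Strc* and *Ceacam16* in TPM.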
